A study of Mus musculus with 3 samples.

Results

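The genes encoded by the mitochondrial chromosome of the mouse were examined in the RNAseq data of isolated adult cardiomyocytes (ACMs). They were taken by the chromosome name MT in the annotation columns of the count table, which gave 37 of 56748 genes. The set holds 13 protein-coding genes (mt-mRNAs), 2 rRNA genes and 22 tRNA genes. The mt-mRNAs encode 7 subunits of complex I, 1 of complex III, 3 of complex IV and 2 of the ATP synthase, here called complex V.

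ACMs were isolated from hearts of wild-type mice aged 8 to 10 weeks, plated for 3 to 4 h and kept in serum-free medium with 10 mM 2,3-butanedione monoxime, an inhibitor of contraction. They were treated for 16 h with vehicle (0.1% BSA), 10 ng/mL human interleukin-6 (IL-6) or 10 ng/mL mouse oncostatin M (OSM), and the BSA and the contraction inhibitor were in the medium of all 3 groups. RNA was pooled, mRNA was captured by its poly(A) tail, and each condition is represented by 1 library, so that no value has a replicate error and no test between conditions could be made. According to the design text of the series, the libraries served to find genes that rise when the OSM receptor activates JAK1, and the comparisons here ask how the mitochondrial transcripts stood in the same libraries.

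Mitochondrial DNA is transcribed from both strands into long RNAs that span many genes. Most mRNAs and rRNAs are flanked by tRNAs, and excision of the tRNAs by processing enzymes frees them. The mRNAs then receive short poly(A) tails, and their steady level is set by transcription, processing and decay. Every protein they encode is a core subunit of a respiratory complex that also contains subunits made from nuclear genes, and the heart, which runs mainly on oxidative phosphorylation, is among the tissues with most mitochondrial RNA.

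The arrangement of the genes matters for how their reads were counted. In GRCm39 the chromosome has 16299 bases, of which 934 lie outside every gene, and the annotation of the count table gave the same start, end and strand as GENCODE M39 for all 37 genes. Of the 37 genes 28 are on the plus strand. Among the mt-mRNAs only mt-Nd6 is on the minus strand, and 8 of the tRNAs are. Some neighbours share bases, and reads from bases shared on the same strand cannot be told apart. For genes on opposite strands this depends on the counting, and no source says if strand was taken into account. The overlaps are shown because they touch mt-Nd4l and mt-Nd5, the genes that differed most, and mt-Atp8, the mRNA with fewest counts. Each line gives the plus strand of GRCm39, and capitals mark the bases that both genes use.
mt-Atp8/mt-Atp6 at MT:7912-7984: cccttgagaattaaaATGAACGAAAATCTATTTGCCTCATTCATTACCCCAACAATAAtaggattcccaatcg
mt-Nd4l/mt-Nd4 at MT:10152-10188: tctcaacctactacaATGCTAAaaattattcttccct
mt-Nd5/mt-Nd6 at MT:13537-13580: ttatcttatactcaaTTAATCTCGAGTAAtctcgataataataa

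The mt-Atp8 and mt-Atp6 genes share 43 bases and mt-Nd4l and mt-Nd4 share 7, in both cases on the same strand. The mt-Nd5 and mt-Nd6 genes share 14 bases at their 3′ ends and are read in opposite directions. The ends of the genes also differ. Of the 13 mt-mRNA genes, 8 end in TAA, 2 in TAG and 3 in a lone T (mt-Co3, mt-Nd4 and mt-Cytb). In those 3 the stop codon is completed by the added poly(A) tail, as is known of mammalian mitochondria. An end with a lone T and one with a whole stop codon are shown on the plus strand, with the terminal T or the stop codon in capitals.
mt-Co3 at MT:9361-9390: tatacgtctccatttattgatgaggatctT
mt-Nd5 at MT:13536-13565: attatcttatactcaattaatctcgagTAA

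Nuclear copies of mitochondrial DNA can take up mitochondrial reads. Aligning the chromosome to the rest of GRCm39 with BLAST found 15 nuclear copies of at least 90% identity, of which 6 had at least 97%. The longest of them, on chromosome 1, has 99.9% identity over 4654 aligned bases and lies at chr1:24650616-24655269 on the minus strand. It contains the whole of mt-Co2, mt-Atp8, mt-Atp6, mt-Co3, mt-Nd3 and mt-Nd4l, together with 63.6% of mt-Nd4 and 31.3% of mt-Co1. In a local alignment from MT position 6394 to 11042 it differed from the mitochondrial sequence at 2 places, the substitution T9461C (mitochondrial base, position on MT, base of the copy) inside mt-Nd3 and a run of A that is 1 base longer in the copy, inside mt-Tr. Positions 6394 to 9460, 3067 bases with mt-Co2, mt-Atp8, mt-Atp6 and mt-Co3 inside them, were identical. The 2 places are shown because they are the only bases of the aligned stretch by which a read could be assigned to either chromosome. The copy is given on the minus strand of chromosome 1, and capitals mark the substituted base or the run.
MT substitution at MT:9447-9476: cagaagagagtaatTaacctgtacactgtt
copy substitution at chr1:24652183-24652212: cagaagagagtaatCaacctgtacactgtt
MT run at MT:9811-9838: taattagtttAAAAAAAAttaatgattt
copy run at chr1:24651820-24651848: taattagtttAAAAAAAAAttaatgattt

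The run has 8 A on MT and 9 in the copy. A copy on chromosome 2 with 97.4% identity covers MT positions 4441 to 7699, which hold all of mt-Co1 and mt-Co2 and part of mt-Nd2. The genes mt-Nd1, mt-Nd5, mt-Nd6, mt-Cytb and mt-Rnr1 have no base in a copy of at least 97% identity. A 93.0% copy on chromosome 4 and a 95.2% copy on chromosome 13 cover parts of mt-Nd5, and the pseudogenes annotated there had few counts. On chromosome 4 the 3 pseudogenes held 1 count in all, in the OSM library. Gm4076 on chromosome 13 had 48 counts with vehicle, 59 with IL-6 and 13 with OSM, against at least 226261 on mt-Nd5 in each library.

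The libraries held 24939980 counts with vehicle, 26362446 with IL-6 and 30773001 with OSM. Mitochondrial genes took 17.4% of the counts with vehicle, 16.1% with IL-6 and 13.6% with OSM. Counting error was small against these differences (95% Clopper-Pearson interval 17.3% to 17.4% with vehicle, 16.1% at both bounds with IL-6 and 13.6% at both bounds with OSM). Intervals here and below cover counting error only and compare libraries, not conditions. A lower share of mitochondrial RNA and a higher amount of all other RNA cannot be told apart in such data, and neither can fewer cells of a type and less RNA per cell.

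The mt-mRNAs made up most of the share, at 16.0%, 14.8% and 12.2% of all counts with vehicle, IL-6 and OSM. The rRNAs took 1.39%, 1.32% and 1.45% in the same order, so that OSM was the lowest library for mRNA and the highest for rRNA. The tRNAs took 0.0110%, 0.0104% and 0.00969%. Of the 10 genes with most counts, 7 were mitochondrial in each library.

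**Figure D1:**
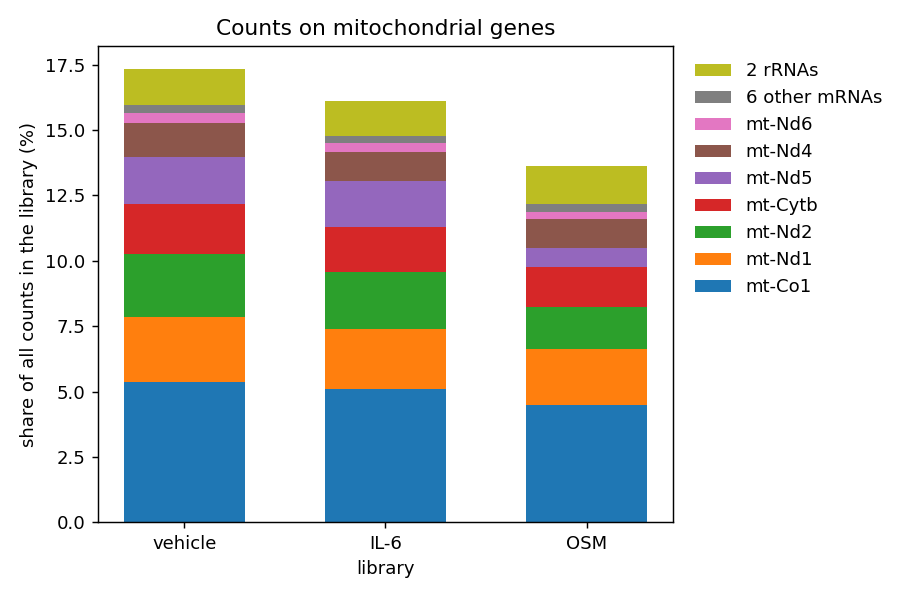
Share of all counts (%) in each library that fell on mitochondrial genes, stacked by gene, with the 6 mRNAs of fewest counts and the 2 rRNAs each summed. The columns reach 17.4% with vehicle, 16.1% with IL-6 and 13.6% with OSM, the mt-Nd5 block is the one that shrinks most with OSM, and the tRNAs, near 0.01%, are left out.

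Genes of complex I contributed 52.3%, 52.1% and 48.2% of the mt-mRNA counts with vehicle, IL-6 and OSM. Complex IV contributed 34.8%, 35.7% and 38.6%, complex III 12.1%, 11.6% and 12.5%, and complex V 0.789%, 0.531% and 0.728%. The vehicle and IL-6 libraries thus lay close together for complex I, and OSM lay below both. The mt-Nd5 gene alone held 11.4% of mt-mRNA counts with vehicle, 11.9% with IL-6 and 6.04% with OSM. Without mt-Nd5 the mt-mRNAs took 14.1%, 13.0% and 11.4% of all counts, so the order of the libraries in this total did not rest on that gene. The lower share of complex I with OSM includes mt-Nd5 and was not computed without it.

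Levels of different genes were compared per length, as the deposited FPKM values, in which the count is divided by gene length and scaled for library size. The mRNA of the catalytic subunit of complex IV, mt-Co1, was the highest in every library, with 34354 FPKM with vehicle, 32145 with IL-6 and 29939 with OSM. The complex I mRNAs mt-Nd1 and mt-Nd2 and the cytochrome b mRNA mt-Cytb followed in that order in all libraries. At the other end, mt-Atp8, which encodes a small subunit of the ATP synthase, had 9.69 FPKM with vehicle, 4.16 with IL-6 and 9.52 with OSM. Its overlapping neighbour mt-Atp6, which is read from the same RNA in mammals, had 1820, 1121 and 1337 FPKM.

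The level of mt-Atp8 was 3546-fold below that of mt-Co1 with vehicle, 7726-fold with IL-6 and 3145-fold with OSM. Of the 204 bases of mt-Atp8, 43 are shared with mt-Atp6. The part of reads that touch both genes in the low level of mt-Atp8 was not tested. The 6 mt-mRNAs that lie wholly inside the chromosome 1 copy were the 6 lowest of the 13 in each library. Among them the highest was mt-Atp6 with vehicle, at 1820 FPKM, and mt-Co3 with IL-6 and OSM, at 1441 and 1830 FPKM. The lowest mt-mRNA not wholly inside the copy was mt-Nd6 at 6731 FPKM with vehicle and 6292 with IL-6, and mt-Nd5 at 4153 with OSM. No source says how reads with more than 1 placement were treated, and the part of that treatment in these levels was not tested.

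The order of the mt-mRNAs was the same in all libraries except around 2 places. With OSM, mt-Nd4 at 8169 FPKM and mt-Nd6 at 5398 FPKM stood above mt-Nd5 at 4153, whereas mt-Nd5 was above both with vehicle (9825 FPKM) and with IL-6 (9403). With vehicle, mt-Co3 at 1075 FPKM stood below mt-Atp6 and mt-Co2 (1305 FPKM), and with IL-6 and OSM it stood above both. All 12 pairs of neighbours in the order had counting intervals that did not overlap in any library.

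**Figure D2:**
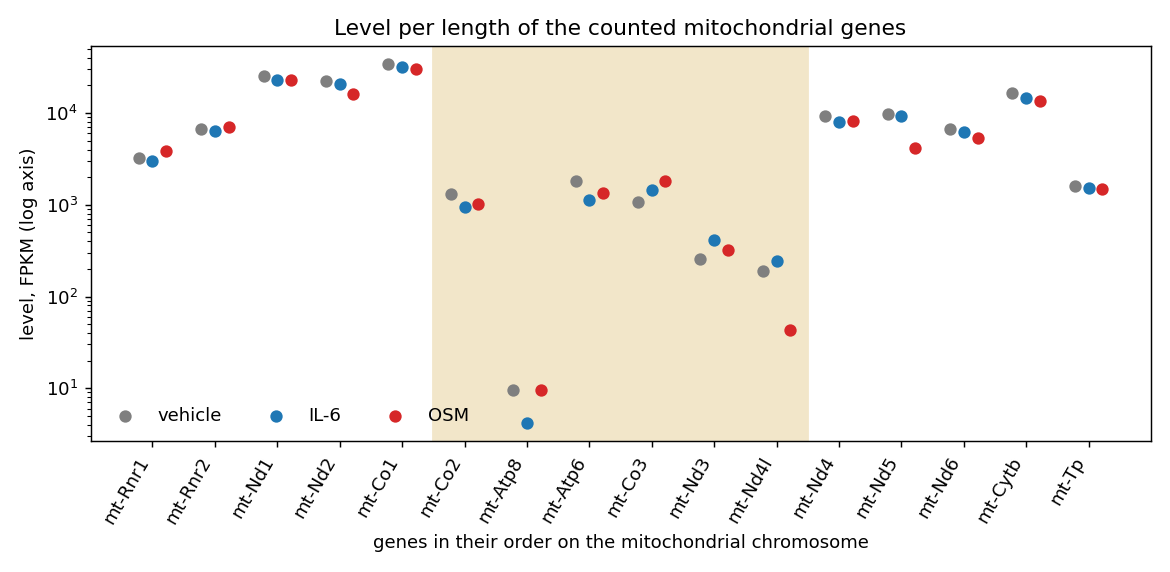
Level of each counted mitochondrial gene in FPKM (log axis) with vehicle (grey), IL-6 (blue) and OSM (red), in the order of the chromosome, with the genes wholly inside the chromosome 1 copy shaded. The 6 shaded mRNAs lie between 4.16 and 1830 FPKM and the other mRNAs between 4153 and 34354 FPKM.

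The rRNAs were below the most abundant mRNAs in these poly(A)-selected libraries. The 16S rRNA of the large ribosomal subunit, mt-Rnr2, had 6741, 6299 and 7137 FPKM with vehicle, IL-6 and OSM. The 12S rRNA of the small subunit, mt-Rnr1, had 3201, 3030 and 3849 FPKM. The OSM library was the highest for both.

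Of the tRNA genes 19 had 0 counts in all libraries. At a floor of 3 counts this allows up to 0.120, 0.114 and 0.0975 CPM (counts scaled to a common library total) with vehicle, IL-6 and OSM. The limit holds for assigned counts and is not a bound on the tRNAs themselves. The part of reads that also touch a neighbouring gene was not tested. The serine tRNA gene mt-Ts1 had 1 count with vehicle and the aspartate tRNA gene mt-Td 2 counts with IL-6, both within that floor. The proline tRNA gene mt-Tp held the rest, with 2740 counts with vehicle, 2741 with IL-6 and 2981 with OSM. It is shown because it is the only tRNA gene with counts above that floor, and it is given on its own, minus strand.
mt-Tp at MT:15356-15422: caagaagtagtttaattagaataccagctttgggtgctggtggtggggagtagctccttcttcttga

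On the circular chromosome mt-Tp and the phenylalanine tRNA gene mt-Tf, at 0 counts, lie at the ends of the same 877 unannotated bases, which hold the control region where replication and transcription start, and the other 20 tRNA genes have under 40 unannotated bases on both sides. Whether its counts came from the tRNA or from longer RNAs of the control region was not tested. Mature tRNAs of 59 to 75 bases without a poly(A) tail are known to be poorly captured by this kind of library.

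OSM was compared with vehicle on counts scaled by edgeR's TMM factors, and a gene was called when the whole counting interval of its ratio lay beyond 2-fold. In the OSM library 2 complex I genes, mt-Nd5 and mt-Nd4l, were called lower, and no mitochondrial gene was called higher. Of the mitochondrial genes, 16 had enough counts to be compared, so 2 of 16 were called lower and 0 of 16 higher, beside 5.43% lower and 3.74% higher among all 15537 genes compared. The summed mt-mRNAs had a log2 ratio of -0.33 and their median, that of mt-Cytb, was -0.28, whereas the median of all genes compared was 0.00.

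For mt-Nd5, which encodes one of the proton-pumping subunits of complex I, the counts were 453315 with vehicle, 464744 with IL-6 and 226261 with OSM. The vehicle and IL-6 libraries were near each other and the OSM library was far below both. The log2 ratio of OSM to vehicle was -1.24 (counting interval -1.25 to -1.24), a 2.37-fold lower scaled count. It was between -1.70 and -1.24 under all scalings tried.

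The lower count of mt-Nd5 also stood out against its neighbours within each library, where no scaling enters. There were 1.40 counts on mt-Nd5 for each count on mt-Nd4 with vehicle, 1.56 with IL-6 and 0.673 with OSM. Against mt-Cytb the ratio was 0.945, 1.03 and 0.485, and against mt-Nd6, which shares its 3′ end (capitals in the mt-Nd5/mt-Nd6 line above), it was 5.13, 5.25 and 2.70. The genes on both sides of mt-Nd5 therefore did not share its difference in size. With mt-Nd5 left out, the summed mt-mRNAs had a log2 ratio of -0.25 (counting interval -0.25 to -0.24).

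The mt-Nd4l gene, for a small membrane subunit of complex I, had 1442 counts with vehicle, 1947 with IL-6 and 380 with OSM. Its log2 ratio of OSM to vehicle was -2.17 (counting interval -2.33 to -2.0), a 4.49-fold lower scaled count. The gene lies inside the chromosome 1 copy, where Gm10222 had 439, 424 and 194 counts. With both summed the log2 ratio was -1.95 (counting interval -2.09 to -1.82), still beyond 2-fold. The copy does not differ from mt-Nd4l at any base. Reads left out for having more than 1 placement would be in neither count, and their part in this ratio was not tested. The gene has only 297 bases, and the part of reads that also touch a neighbouring gene was not tested either. The neighbour mt-Nd4, with which mt-Nd4l forms a shared mRNA in mammals, had 324683, 298333 and 336219 counts and a log2 ratio of -0.19. With vehicle, IL-6 and OSM the level of mt-Nd4l was 192, 242 and 42.8 FPKM, and that of mt-Nd4 was 9314, 7989 and 8169 FPKM. Whether the lower count of mt-Nd4l reflects less of that mRNA was not tested.

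The other complex I mRNAs had smaller differences. The mt-Nd2 mRNA had 594463 counts with vehicle, 576536 with IL-6 and 502042 with OSM, and a log2 ratio of OSM to vehicle of -0.49. Against its upstream neighbour mt-Nd1 it gave 0.961 counts per count with vehicle, 0.962 with IL-6 and 0.769 with OSM, so that within these libraries mt-Nd2 was again low with OSM alone. The mt-Nd1 mRNA itself had 618548, 599006 and 653140 counts and a log2 ratio of -0.16. The minus-strand mt-Nd6 had 88377, 88484 and 83674 counts and a log2 ratio of -0.32. For mt-Nd3, with 2249, 3863 and 3308 counts, the log2 ratio was 0.32, but it was -0.14 after the median of nuclear genes of like length was subtracted.

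In complex III, mt-Cytb had 479747 counts with vehicle, 452598 with IL-6 and 466618 with OSM, and a log2 ratio of OSM to vehicle of -0.28. In complex IV, mt-Co1 had 1342689, 1345828 and 1381528 counts and a log2 ratio of -0.20, and mt-Co2, which binds cytochrome c, had 22580, 17397 and 20916 counts and a log2 ratio of -0.35. The third core subunit, mt-Co3, was the only mt-mRNA whose log2 ratio reached 0.5 or more, with 21324, 30614 and 42843 counts and 0.77 (counting interval 0.74 to 0.79), short of 2-fold. In complex V, mt-Atp6 had 31350, 20686 and 27195 counts and a log2 ratio of -0.45, and mt-Atp8, with 50, 23 and 58 counts, had -0.03 (counting interval -0.60 to 0.55).

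Among the 6 mRNAs not mainly inside the chromosome 1 copy the differences were of the same direction and, apart from mt-Nd5, small. The other 5 of them ranged from -0.49 to -0.16 on the log2 scale, whereas the 6 wholly inside the copy ranged from -2.17 to 0.77. Past counting error alone, 11 of the 16 genes were lower and 4 higher, beside 33.1% lower and 33.4% higher of all genes compared.

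The rRNAs did not share the direction of most mRNAs. The counts of mt-Rnr1 were 77322 with vehicle, 78402 with IL-6 and 109799 with OSM, with a log2 ratio of OSM to vehicle of 0.26 that became -0.19 with the subtraction by length. Those of mt-Rnr2 were 269782, 270020 and 337211, with a log2 ratio of 0.08 that was -0.37 with the subtraction by length and -0.05 when scaled by the counts off MT. Ratios within a library do not depend on these choices. There were 0.125, 0.131 and 0.168 counts on mt-Rnr1 for each count on mt-Nd1, the next mRNA downstream, with vehicle, IL-6 and OSM, and 0.436, 0.451 and 0.516 on mt-Rnr2, so that rRNA counts were highest relative to that mRNA in the OSM library. The log2 ratio of mt-Tp was -0.12.

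Gene length moved with the difference between the OSM and vehicle libraries. Among nuclear protein-coding genes the median log2 ratio ran from 0.45 in the shortest eighth by length to -0.55 in the longest. The mt-mRNAs, of 204 to 1824 bases, are all in the shortest eighth, and the 1273 nuclear protein-coding genes of that range of length had a median of 0.48. The mt-mRNA median of -0.28 therefore lay further from that of nuclear genes of like length than from that of all genes. What the trend with length reflects was not tested.

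The IL-6 library differed less from vehicle. No mitochondrial gene of 16 was called higher or lower, beside 1.77% higher and 1.74% lower of the 15472 genes compared, and past counting error 3 were higher and 13 lower, beside 19.6% and 19.1%. The summed mt-mRNAs had a log2 ratio of -0.13 and their median, that of mt-Nd2, was -0.14. This comparison and the one of OSM share the vehicle library.

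Among the mRNAs not mainly inside the chromosome 1 copy, the log2 ratios of IL-6 to vehicle lay in a narrow band. They were -0.15 for mt-Nd1, -0.14 for mt-Nd2, -0.10 for mt-Co1 and for mt-Nd6, -0.18 for mt-Cytb and -0.06 for mt-Nd5. Both rRNAs were in the same band, with -0.08 for mt-Rnr1 and -0.10 for mt-Rnr2, and so was mt-Tp with -0.10. These genes stood in nearly the same proportions in the 2 libraries.

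The genes inside the copy spread more widely with IL-6. The log2 ratio was 0.68 (counting interval 0.61 to 0.76) for mt-Nd3, 0.42 for mt-Co3 and 0.33 for mt-Nd4l. It was -0.70 (counting interval -0.73 to -0.67) for mt-Atp6, -0.48 for mt-Co2 and -0.22 for mt-Nd4. For mt-Atp8 it was -1.22, but with 50 against 23 counts the interval reached from -2.0 to -0.48.

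In the direct comparison of OSM with IL-6, the genes called were again mt-Nd5 and mt-Nd4l, 2 of 16 lower and 0 of 16 higher, beside 5.42% lower and 4.24% higher of 15544 genes. The log2 ratio was -1.18 for mt-Nd5 and -2.50 for mt-Nd4l. Both comparisons use the OSM library and are not independent. The next lowest values were -0.37 for mt-Nd3 and -0.34 for mt-Nd2, and that of mt-Nd3 was 0.10 with the counts of the nuclear copies added. At 1.19 (counting interval 0.47 to 1.96) mt-Atp8 was the highest. The values of mt-Rnr1 (0.34), mt-Rnr2 (0.18), mt-Co3 (0.34), mt-Atp6 (0.25), mt-Co2 (0.12) and mt-Nd4 (0.03) were above 0 but lay below it after subtraction by length, and that of mt-Nd4 was also below 0 by total counts. Past counting error 7 genes were higher and 8 lower, beside 33.2% higher and 33.2% lower of all genes compared.

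**Figure D3:**
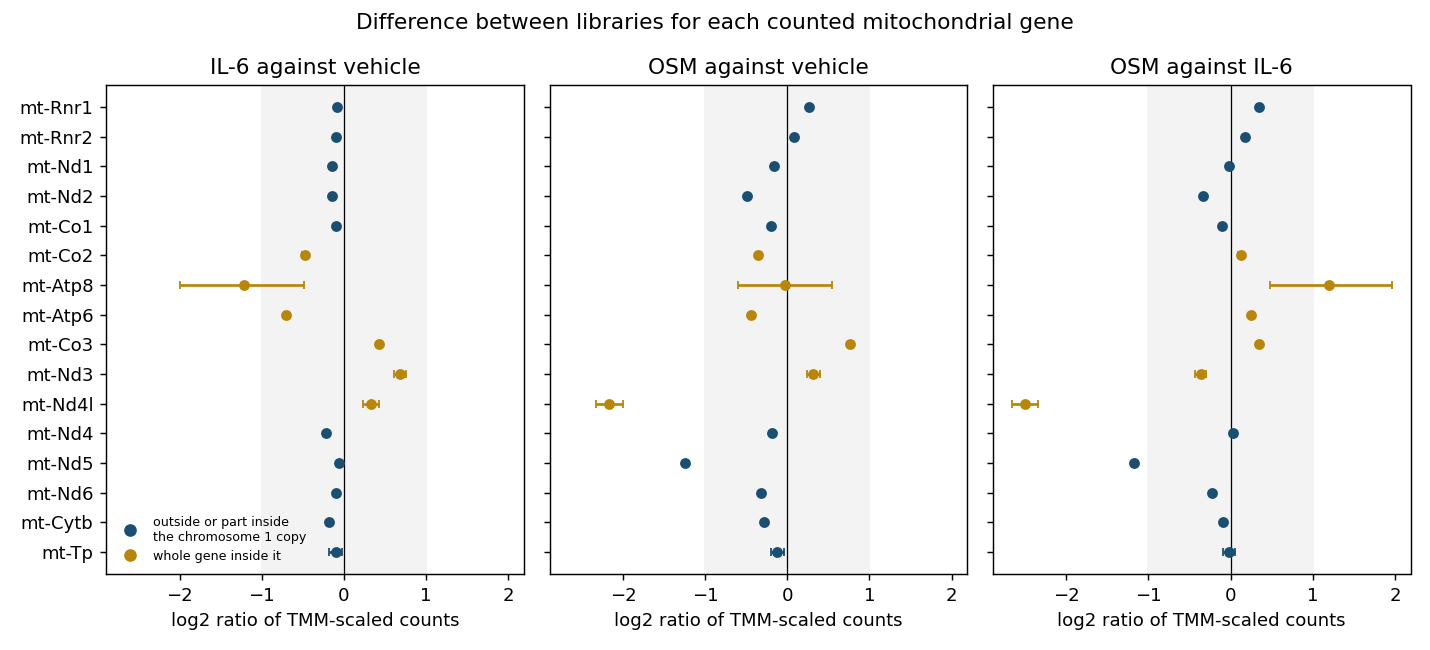
Log2 ratio of TMM-scaled counts for each pair of libraries, with 95% counting intervals, for genes wholly inside the chromosome 1 copy (gold) and the others (blue), and with the range within 2-fold in grey. With IL-6 the blue mRNAs lie between -0.22 and -0.06, and in both comparisons of OSM mt-Nd5 and mt-Nd4l lie to the left of the grey range.

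The 7 pseudogenes of the chromosome 1 copy together held 38095 counts with vehicle, 36803 with IL-6 and 41176 with OSM, and their values did not simply follow those of their mitochondrial twins. Gm28661, the copy of mt-Co2, had 11585 counts with vehicle, 7058 with IL-6 and 9688 with OSM, low with IL-6 as mt-Co2 was. Gm28437, the copy of mt-Co3, had 7827, 9803 and 9594, whereas mt-Co3 was higher again with OSM than with IL-6. Gm10925, the copy of mt-Atp6, had 8212, 6962 and 6145, lowest with OSM where mt-Atp6 was lowest with IL-6.

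Gm29216, the copy of the 3′ part of mt-Co1, had 4981 counts with vehicle, 6603 with IL-6 and 11464 with OSM, and Gm28439, the copy of part of mt-Nd4, had 4342, 5081 and 1802. These are the 5 genes on nuclear copies with most counts. The counts on Gm28439 were lower with OSM by a log2 ratio of -1.51, although mt-Nd4 had only -0.19. Of the counts on each mitochondrial gene and its chromosome 1 twin together, the mitochondrial gene held 66.1%, 71.1% and 68.3% for mt-Co2, 79.2%, 74.8% and 81.6% for mt-Atp6 and 73.2%, 75.7% and 81.7% for mt-Co3 with vehicle, IL-6 and OSM. For mt-Nd3, with the copy Gm28438, it was 76.0%, 81.6% and 59.1%, so this gene shifted most between the chromosomes.

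Summing each pair removes that division. The summed log2 ratio of OSM to vehicle was 0.61 for mt-Co3, 0.68 for mt-Nd3, -0.49 for mt-Atp6 and -0.40 for mt-Co2. For IL-6 against vehicle it was 0.37, 0.58, -0.62 and -0.58 in the same order. With the copies added, mt-Co2, mt-Atp6, mt-Co3, mt-Nd3 and mt-Nd4l had the same signs in both comparisons with vehicle as without them, and the spread between them with IL-6 remained wider than among the genes not mainly inside it. The sums still hold whatever came from the nuclear copy itself, and would lack reads left out for having more than 1 placement.

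**Figure D4:**
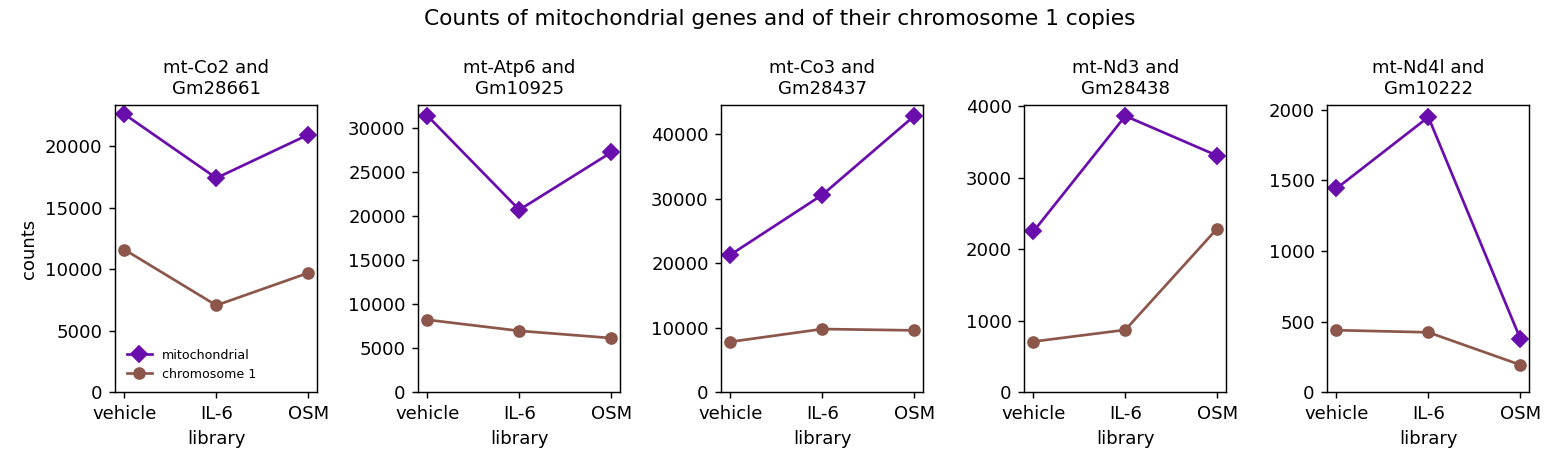
Counts (axes from 0, a separate scale in each panel) of 5 mitochondrial genes (purple) and of the pseudogenes at the same place in the chromosome 1 copy (brown) in the 3 libraries. Each mitochondrial gene has more counts than its copy in every library, and from IL-6 to OSM the counts of mt-Nd3 drop while those of Gm28438 climb.

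Nuclear genes that act on mitochondrial DNA and RNA were described from 7 lists with 96 genes, 95 of them compared. Between OSM and vehicle 3 of 95 were called lower and 0 higher, beside 5.43% lower and 3.74% higher of all genes compared, so calls were no more common among them than elsewhere. Their median log2 ratio was 0.15, beside 0.00 for all genes. The 3 called are all among the 12 regulators of mitochondrial biogenesis. Ppargc1a, the coactivator PGC-1α, had 1035 counts with vehicle, 937 with IL-6 and 351 with OSM (log2 ratio of OSM to vehicle -1.80, counting interval -1.98 to -1.63). Esrrg, an orphan nuclear receptor that PGC-1α coactivates, had 1278, 1402 and 306 (-2.30, counting interval -2.49 to -2.12), and Ppara, a nuclear receptor for fatty acid oxidation genes, had 300, 307 and 103 (-1.78, counting interval -2.12 to -1.46).

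The vehicle and IL-6 libraries were near each other for these 3 genes and the OSM library was well below both. The median of the 12 regulators was -0.14, and past counting error 5 were lower, these 3 included, and 3 higher. The other 2 lower ones were Gabpa, a subunit of a transcription factor for respiratory chain genes, with a log2 ratio of OSM to vehicle of -0.42, and the nuclear receptor Esrrb with -0.27. The 3 higher ones were Nrf1, another transcription factor for respiratory chain genes, with 0.29, Pprc1, a relative of PGC-1α, with 0.16 and the nuclear receptor Ppard with 0.66.

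The transcription machinery itself had smaller differences, with no gene of 9 called and a median of 0.22. Past counting error 5 of the 9 were higher and 2 lower, beside 33.4% higher and 33.1% lower of all genes compared. The mitochondrial RNA polymerase Polrmt had 915 counts with vehicle, 970 with IL-6 and 974 with OSM, and a log2 ratio of OSM to vehicle of -0.15. Its initiation factor Tfb2m had 2054, 2315 and 1898 counts and -0.36. The largest value was that of Mterf1a, of the family of termination factors, 0.68 on 37 and 70 counts. Next were Mterf4 with 0.51 and Mterf3 with 0.45, of the same family. For the 12 genes of mtDNA maintenance the median was 0.12, from -0.45 for the ribonucleotide reductase subunit Rrm2b to 0.56 for the thymidine kinase Tk2.

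Among 14 genes of RNA processing the median was 0.08. Fastkd1, of a family of RNA-binding proteins that act on single mt-mRNAs, was the lowest with 516 counts with vehicle, 677 with IL-6 and 339 with OSM (log2 ratio of OSM to vehicle -0.85, counting interval -1.05 to -0.65). Hsd17b10, a subunit of the mitochondrial ribonuclease P that cuts tRNA 5′ ends, was the highest with 0.66. In RNA stability and decay, 6 of 7 genes were compared, with a median of -0.07. Lrpprc, which stabilizes mt-mRNAs and promotes their polyadenylation, had 4907, 5412 and 4680 counts and -0.31, the exonuclease Pnpt1 had -0.22, and the deadenylase Pde12 had 844, 794 and 1519 counts and 0.61. Slirp, the partner of Lrpprc, was at 0 counts in all libraries. Whether its RNA was absent or its reads were not assigned to the gene was not tested.

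Genes that act on tRNAs and rRNAs tended to positive values. The median was 0.34 for 20 genes of tRNA and rRNA modification, of which 11 were higher and 3 lower past counting error, led by the pseudouridine synthase Pus1 with 0.79. It was 0.18 for a list of 22 genes of mitochondrial tRNA aminoacylation, most of them synthetases. Of these 22 genes, 13 were higher and 4 lower past counting error, from -0.64 for Iars2 to 0.54 for Cars2. These shares stand beside 33.4% higher and 33.1% lower of all genes. Between IL-6 and vehicle the 95 genes had a median of 0.03 and 0 were called, beside 1.77% higher and 1.74% lower of all genes.

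Nuclear subunits of the same complexes lay on the other side of 0 from most mt-mRNAs in the OSM comparison. Of 83 nuclear respiratory chain genes 0 were called, beside 3.74% higher and 5.43% lower of all genes compared. Past counting error 78 were higher and 2 lower, beside 33.4% and 33.1% of all genes, and beside 822 higher and 111 lower of the 1273 nuclear protein-coding genes in the length range of the mt-mRNAs. The median log2 ratio was 0.61, beside 0.48 for those 1273 genes, although some of the 83 are longer than that range. By complex the medians were 0.61 for 36 genes of complex I, 0.19 for 4 of complex II, 0.50 for 9 of complex III, 0.62 for 16 of complex IV and 0.63 for 18 of complex V. Complex II, which has no mitochondrially encoded subunit, was the lowest of the 5.

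The largest value was 1.23 (counting interval 0.97 to 1.5) for Ndufb2, an accessory subunit of complex I with 165 counts with vehicle, 194 with IL-6 and 459 with OSM. Its level with vehicle was only 1.16 FPKM, beside a median of 143 FPKM for the 36 nuclear genes of complex I. Among the next were Ndufa13 of complex I, with 4695 counts with vehicle, 5460 with IL-6 and 10222 with OSM (log2 ratio of OSM to vehicle 0.88), and Uqcr11 of complex III, with 5981, 6489 and 13740 (0.96). Cox8b, the heart and muscle form of a complex IV subunit, had 6887, 7323 and 15533 counts and 0.93, and Atp5e of complex V 5602, 6341 and 12593 counts and 0.93. The large complex I subunit Ndufs1 had 15636, 16746 and 16335 counts and -0.18, the lowest of its complex. With IL-6 the 83 genes had a median of 0.01, with 29 higher and 14 lower past counting error, beside 19.6% and 19.1% of all genes.

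The balance between the genomes differed accordingly. Summed FPKM of mitochondrially encoded complex I subunits was 13.6 times that of the nuclear subunits with vehicle, 12.5 times with IL-6 and 6.91 times with OSM. For complex III the ratio was 5.93, 5.11 and 3.32, and for complex IV it was 5.70, 5.34 and 3.20. For complex V, whose 2 mitochondrial genes lie inside the chromosome 1 copy, it was 0.325, 0.198 and 0.185. The copy also holds mt-Co2 and mt-Co3 of complex IV and mt-Nd3 and mt-Nd4l of complex I. With vehicle, mt-Co1 alone held 34354 of the 36735 FPKM in the mitochondrial sum of complex IV. Both parts of the ratio differed. From vehicle to OSM the mitochondrial sum of complex I went from 74507 to 57126 FPKM and the nuclear sum from 5478 to 8266. Nuclear protein-coding genes in the length range of the mt-mRNAs were also higher with OSM, with a median log2 ratio of 0.48. That range does not match all nuclear subunits, as Ndufb7 of complex I, for example, has 4522 bases. Whether the nuclear rise was particular to the respiratory chain was not tested.

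**Figure D5:**
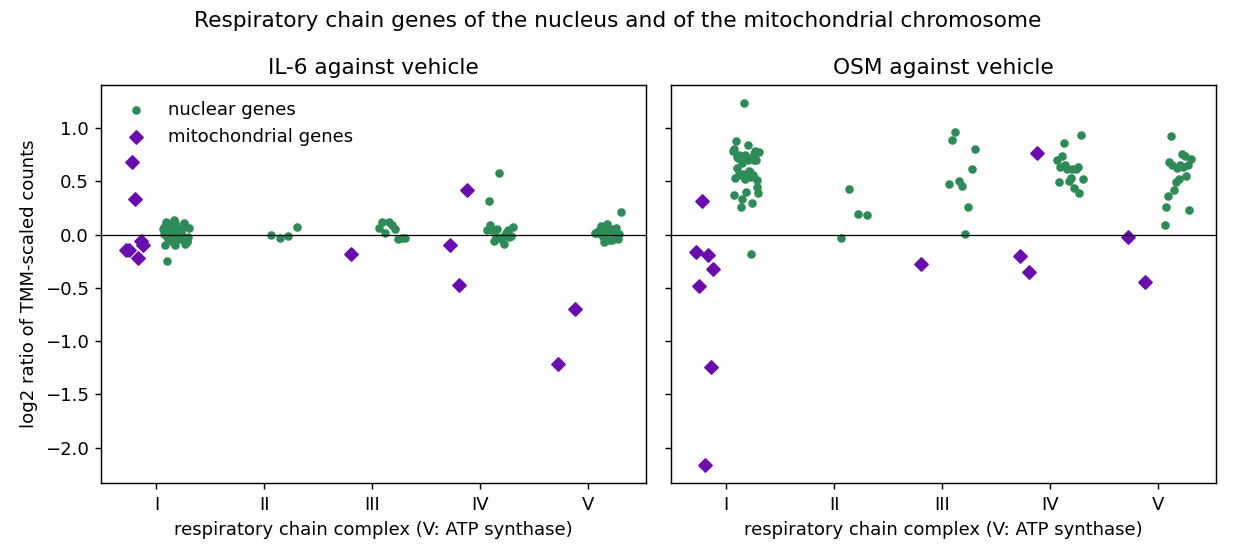
Log2 ratio of TMM-scaled counts of respiratory chain genes encoded in the nucleus (green circles) and on the mitochondrial chromosome (purple diamonds), by complex, for IL-6 and OSM against vehicle. With OSM nearly all nuclear genes lie above 0 and 11 of 13 mitochondrial mRNAs below it, and with IL-6 the nuclear genes lie around 0.

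The markers of the labelled cell type were present. The 8 cardiomyocyte markers summed to 36678 CPM with vehicle, 37559 with IL-6 and 38042 with OSM, with none at 0. Past counting error 4 were higher with OSM than with vehicle and 4 lower, from 0.68 on the log2 scale for the troponin Tnni3 to -1.53 for the calcium release channel Ryr2, and Ryr2 was the only one called, beside 5.43% lower of all genes. Fibroblast markers summed to 5.31 to 6.37 CPM, endothelial to 32.8 to 35.6 CPM and smooth muscle and pericyte markers to 35.6 to 42.9 CPM. The 7 macrophage markers summed to 23.7 CPM with vehicle, 23.4 with IL-6 and 54.1 with OSM, with C1qa, C1qb and Ptprc at 0 in all libraries, and 1, the lysosomal gene Cd68, was called higher with OSM, with 382, 448 and 1419 counts, beside 3.74% higher of all genes. The part of other cell types in the mitochondrial values was not tested.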

How the data were processed

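RNAseq of pooled RNA from ACMs gave 1 library for each of 3 conditions, grouped by the sample labels. The authors deposited whole-number counts per gene and FPKM values, the latter scaled by gene length and library. The submitters' processing notes name fastp, HISAT2 2.2.1, featureCounts 2.0.6, edgeR 4.0.16 and the build mm39 (GRCm39). Strand setting and treatment of multiply placed reads were not given in the sources used. No column was left unmatched (0 columns).

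TMM factors were computed for each pair over all genes with edgeR 4.0.16 in R 4.3.3. A gene was compared if the pair held 10 or more counts. Log2 ratios of scaled counts carry 95% Clopper-Pearson intervals (scipy 1.17.1), conditional on the summed counts, and genes were called where the interval lay beyond 2-fold. An FPKM interval is the exact Poisson interval of the count. With 1 library per condition no test was run. Nuclear copies were found with BLAST+ 2.17.0 and aligned with Biopython 1.88, and sequences were read from GRCm39.

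Named were all mt-mRNAs and rRNAs, tRNAs with at least 10 counts over a pair, and the called members of each nuclear list, otherwise from up to 3 at each end of the log2 ratios with at least 100 counts, and the 5 genes on nuclear copies with most counts. Slirp, Gabpa, Esrrb, mt-Tf, Gm10222, Gm28438, Gm4076, mt-Ts1, mt-Td and the markers at 0 were named after their values were seen. The members and lists were chosen with earlier results of these data known. Alternatives were other scalings (DESeq2 1.42.0 size factors, total counts, counts off MT, the deposited FPKM), subtraction by gene length, added counts of nuclear copies, other minimums (1 or 100 counts) and call rules, and other denominators of the shares.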

Additional observations from a re-analysis of the deposited data

How the results depend on the processing

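The shares of all mitochondrial genes with vehicle, IL-6 and OSM were 16.2%, 15% and 12.4% without the rRNA genes, 16.5%, 15.2% and 12.6% among protein-coding genes, and 36.9%, 34.7% and 28.1% of summed FPKM, with the libraries in the same order each time. For OSM against vehicle the summed mt-mRNA log2 ratio of -0.33 was -0.33 with DESeq2 factors, -0.39 by total counts, -0.46 by counts off MT and -0.78 after subtraction by length, and the median of -0.28 was -0.34 by total counts, -0.41 by counts off MT and -0.73 after subtraction by length. For IL-6 against vehicle the sum of -0.13 was -0.13 with DESeq2 factors, -0.11 by total counts and -0.15 after subtraction by length, and the median of -0.14 was -0.12 by total counts and -0.16 after subtraction by length. For OSM against IL-6 the sum of -0.20 was -0.20 with DESeq2 factors or with the nuclear copies added, -0.28 by total counts, -0.32 by counts off MT and -0.64 after subtraction by length, and the median of -0.10 was -0.18, -0.22 and -0.54 under the last 3 of these and -0.017 with the copies added. TMM factors over genes with at least 10 counts, and TMM factors without the MT genes, were chosen after seeing the data, and the first gave -0.34 for the sum and -0.29 for the median of OSM against vehicle. Calling any difference past counting error gave 15 genes in each comparison of OSM and 16 in that of IL-6 with vehicle. For IL-6 against vehicle, where 0 genes were called, a 1.5-fold limit called 2 (mt-Nd3 higher, mt-Atp6 lower) and the ratio alone without its interval called 1 (mt-Atp8 lower). The 1.5-fold limit also called mt-Co3 higher for OSM against vehicle, and the ratio alone mt-Atp8 higher for OSM against IL-6. The calls of mt-Nd5 and mt-Nd4l held under every scaling tried. No paired analysis was possible because each condition has 1 library and the labels give no replicate numbers. With 1 library per condition, differences between cultures of the same condition are not measured, and depth limits only mt-Atp8 and the tRNAs.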
